A study of Mus musculus with 8 samples.

Results

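The genes examined here are 40 mouse genes for peroxisomes and fatty acid oxidation, taken from a list of gene names that was drawn up with earlier results of these data known. They were found by gene symbol among the 49315 genes of the count tables, and all 40 were matched. They fall into 14 genes for peroxisomal enzymes and transporters, 8 peroxin (Pex) genes for peroxisome biogenesis, 17 genes for mitochondrial fatty acid oxidation, and Ppara, a regulator. Messenger RNA had been sequenced from 4 frozen kidney samples labelled control and 4 labelled conditional knockout, the gene deleted being Kdm1a. Kdm1a encodes LSD1, which removes methyl groups from histone H3. The labels give genotype and tissue, and the protocol calls the controls wild type. The Cre driver, the kidney cells it targets, the deleted exons, strain, age and sex are not given in the sources used here. Samples are numbered 1 to 4 within a genotype, and nothing says whether each came from a separate animal or a pool. The p-values measure only the spread between these samples, which may be technical.

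Peroxisomes and mitochondria both shorten fatty acids by beta-oxidation. Peroxisomes take very long-chain and branched-chain fatty acids and bile acid intermediates, remove the first carbon of phytanic acid by alpha-oxidation, and pass shortened acyl groups on to mitochondria. In the kidney, the proximal tubule is rich in both organelles and relies on fatty acids as fuel. PPAR-alpha, the product of Ppara, is a nuclear receptor that binds fatty acids and switches on many genes of both pathways.

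Libraries held 19524945 to 28544511 counts. Levels are given as CPM, the count scaled to a common library size (TMM library sizes). By total counts alone, before TMM scaling, 1 count stood for 0.0350 to 0.0512 CPM. Kdm1a was at 110, 112, 120 and 110 CPM in controls 1 to 4 and at 94.0, 95.3, 90.9 and 94.2 CPM in knockouts 1 to 4. The fall was 17.0% (edgeR adjusted p 0.0194; exact two-sided permutation test, p = 0.0286, the smallest that 4 against 4 samples allow), and the transcript was still abundant in every knockout kidney. Proximal tubule markers checked the tissue: their summed level was 685 to 2935 CPM in controls and 95.7 to 460 CPM in knockouts, and of 20 markers the 19 that passed the filter on low counts were called lower. These calls also depended on single libraries: 1 marker was called lower without knockout 4, 6 without knockout 1, 7 without control 1, 8 without control 3, 10 without control 4, 12 without knockout 2, and 0 without both knockouts 1 and 4. Over all genes tested, 0.230% were called lower without knockout 4, 0.928% to 1.83% without each other library just named, and 0 without both knockouts. At an unadjusted p under 0.05, all 20 markers tested were lower without knockout 4, against 5035 of all 18672 genes in either direction. Their median log2 fold change was -3.01. Without both knockouts 1 and 4, all 20 were again lower at that level, with a median of -2.82. Control 2 was the lowest control for 19 of the 20. Library pairs were also compared by chi-square per degree of freedom, over all genes with at least 10 counts in the pair. By this measure control 2 was nearer each knockout (16.3 to 20.7) than any other control (31.8 to 56.0). Summed adrenal gland markers reached 2749 CPM in knockout 1, 381 CPM in knockout 4 and 148 CPM in control 4, against 15.6 to 19.5 CPM in the other 5 libraries. Summed hepatocyte markers were 169 and 158 CPM in knockouts 1 and 4 and 9.55 to 17.9 CPM elsewhere, with Cyp2c29 at 0 in every library. Mean Y-linked log2 CPM was 5.65 to 5.97 in 5 libraries and -2.02 to -0.52 in control 2 and knockouts 1 and 4. The part of these differences between libraries in the results below was not tested, except where a fit without the library or with a covariate is given.

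To show the promoters of a pair of near-duplicate genes of which 1 was called, of a gene called lower (Acsm2), of one not called (Cpt1a) and of a pair of adjoining genes, stretches upstream of the start site are printed from RefSeq (GRCm38.p6), with CG dinucleotides in capitals. Acaa1a and Acaa1b both encode the peroxisomal 3-ketoacyl-CoA thiolase and lie 183 kb apart on chromosome 9. Acsm2 encodes a mitochondrial medium-chain acyl-CoA synthetase. Cpt1a encodes the carnitine palmitoyltransferase that admits long-chain fatty acids to mitochondria. Hadha and Hadhb, which encode the 2 subunits of the mitochondrial trifunctional protein, start back to back, and the 85 bases between them are shown. The Acaa1a stretch is limited to the 134 bases with no annotated exon, and lies upstream of the RefSeq start but inside the annotated gene, which has transcripts starting farther upstream.
Acaa1a (chr9:119341160-119341293, plus strand): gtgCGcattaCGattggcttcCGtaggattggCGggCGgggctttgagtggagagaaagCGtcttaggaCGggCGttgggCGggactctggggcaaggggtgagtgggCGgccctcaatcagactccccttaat
Acaa1b (chr9:119157094-119157343, minus strand): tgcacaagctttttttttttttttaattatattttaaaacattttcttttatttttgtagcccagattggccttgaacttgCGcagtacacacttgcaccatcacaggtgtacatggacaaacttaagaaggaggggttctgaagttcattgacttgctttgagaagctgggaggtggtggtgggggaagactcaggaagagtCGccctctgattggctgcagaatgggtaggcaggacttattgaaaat
Acsm2 (chr7:119554090-119554339, plus strand): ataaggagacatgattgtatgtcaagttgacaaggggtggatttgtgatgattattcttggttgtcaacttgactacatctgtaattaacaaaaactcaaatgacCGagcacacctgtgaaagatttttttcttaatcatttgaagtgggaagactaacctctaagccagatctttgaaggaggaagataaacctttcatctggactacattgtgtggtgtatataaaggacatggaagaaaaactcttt
Cpt1a (chr19:3323051-3323300, plus strand): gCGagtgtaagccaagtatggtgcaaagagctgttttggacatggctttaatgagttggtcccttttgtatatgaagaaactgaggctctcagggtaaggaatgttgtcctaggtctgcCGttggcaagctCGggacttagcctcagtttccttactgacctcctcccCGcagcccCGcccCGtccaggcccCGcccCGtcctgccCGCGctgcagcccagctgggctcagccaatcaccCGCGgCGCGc
Hadha to Hadhb (chr5:30155163-30155247, plus strand): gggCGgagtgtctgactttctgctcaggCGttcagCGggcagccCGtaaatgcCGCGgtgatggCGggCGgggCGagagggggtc
The Acaa1a stretch held 10 CG dinucleotides in 134 bases, whereas the Acaa1b stretch held 2 and the Acsm2 stretch 1 in 250 bases. The Cpt1a stretch held 14, and the Hadha to Hadhb interval held 9 in 85 bases.

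Of the 40 genes, 14 were lower in the knockout and 0 were higher at an adjusted p under 0.05 by edgeR's quasi-likelihood test, termed a call here. Over all 18485 genes tested, 8.27% were called lower and 6.61% higher (14.9% in either direction). At an unadjusted p under 0.05, 27 of the 40 had lower values and 0 higher, against 6489 of all 18485 genes tested in either direction. DESeq2 and limma-voom also called 0 of the 40 higher, against 1966 of 19840 and 4061 of 18485 of all genes tested. The median log2 fold change was -0.45 over the 40 genes and 0.004 over all genes tested. All 40 passed the filter on low counts. All 4 knockouts lay below all 4 controls for 12 of the 40 genes, against 9.58% of all genes tested, and above them for 0, against 9.29%. A fall of at least 4-fold was called for 5 of the 40, against 1.48% of all genes. The peroxisomal enzymes and transporters had 7 of 14 called lower, with a median of -0.62. The mitochondrial genes had 5 of 17 called lower, with a median of -0.57, and the Pex genes had 1 of 8, with a median of -0.19. Whether these groups differ from each other was not tested. In whole kidney, fewer cells of a type and less RNA per cell cannot be told apart.

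**Figure D1:**
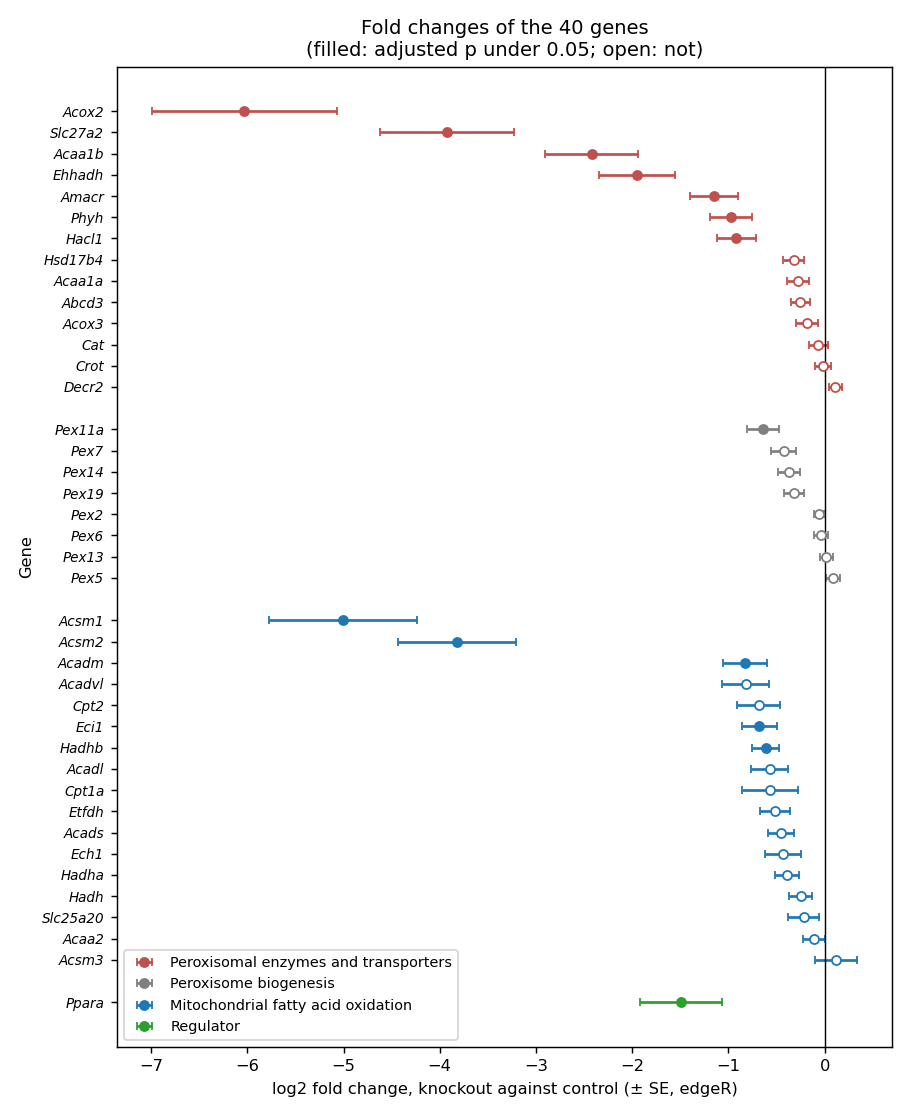
Log2 fold change of knockout against control for each of the 40 genes, with its standard error from the edgeR fit, grouped by role. Filled points are the 14 called genes, and the 5 largest falls, Acox2, Acsm1, Slc27a2, Acsm2 and Acaa1b, stand between -6.03 and -2.42, while the Pex genes lie between -0.64 and 0.09.

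The direction of the 14 called genes held, but their calls did not. All 14 had lower values in each of the 8 fits that left out 1 library, yet the number of the 40 called lower ranged from 0 to 31, and the share of all genes called lower from 0.230% to 19.0%. Without control 1, 4 of the 40 were called lower (1.28% of all genes), without control 2, 31 (19.0%), without control 3, 4 (0.928%), and without control 4, 7 (1.83%). Without knockout 1, 4 were called lower (1.12% of all genes), without knockout 2, 4 (1.47%), and without knockout 3, 12 (9.30%). Without knockout 4, 0 were called (0.230% of all genes), and the adjusted p of the 14 ran from 0.0530 to 0.123. In the 5 libraries with Y-linked transcripts, 3 controls and 2 knockouts, 20 genes were called lower (7.84% of all genes). With the adrenal markers as a covariate, 9 were called lower (2.23% of all genes). With both knockouts 1 and 4 left out, 0 were called (edgeR adjusted p 0.146 to 0.255 for the 14), and the median was -0.44. In that fit 18 of the 40 were lower at an unadjusted p under 0.05, against 3504 of all 19167 genes in either direction.

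**Figure D2:**
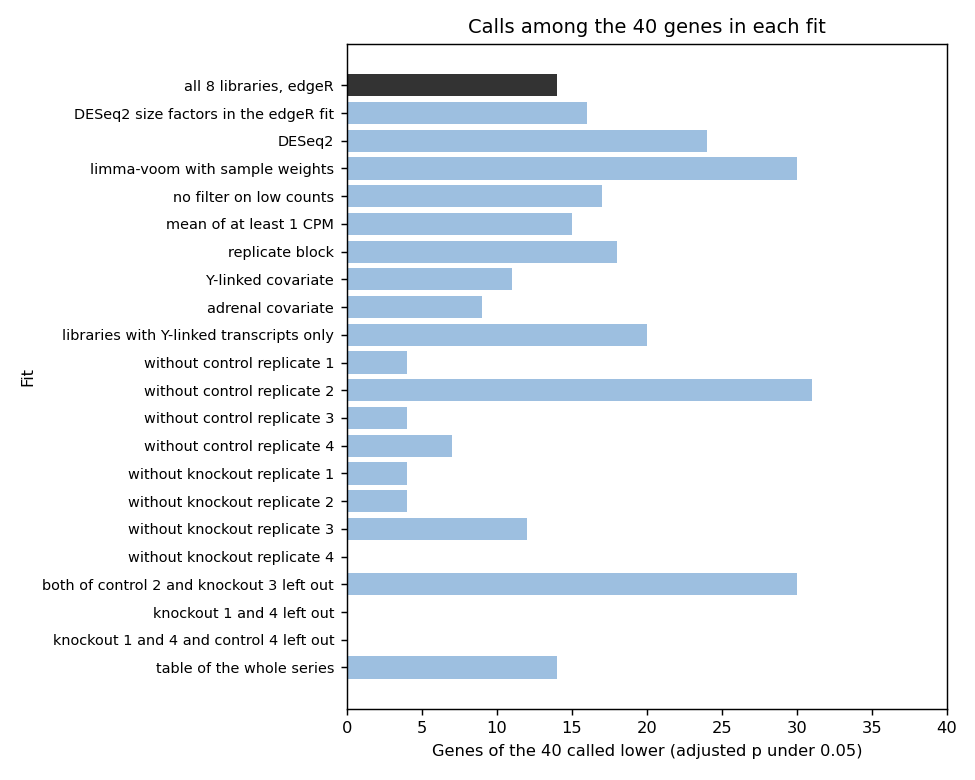
Number of the 40 genes called lower (adjusted p under 0.05) in each fit. The dark bar is the edgeR fit with all 8 libraries, at 14, and the count ranges from 0 without knockout 4 to 31 without control 2.

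Acox2 had the largest fall of the 40. It encodes a peroxisomal acyl-CoA oxidase that acts on bile acid side chains (ENSMUSG00000021751, GRCm38 chromosome 14, 8225511 to 8259353). Controls 1 to 4 had 123, 14, 86 and 171 counts of Acox2 and knockouts 1 to 4 had 0, 2, 4 and 0. In CPM the controls stood at 5.04, 0.649, 3.47 and 7.77, and no knockout was above 0.138. The groups did not overlap, although control 2 was far below the other controls. The log2 fold change was -6.03 (SE 0.96, adjusted p 0.0128), and the call held in 7 of the 8 leave-one-out fits, all but that without knockout 4 (0.0530). Acox3, for another peroxisomal acyl-CoA oxidase, had overlapping levels of 24.4 to 34.0 CPM in controls and 25.5 to 30.3 CPM in knockouts (-0.18, SE 0.11, adjusted p 0.281).

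Slc27a2 encodes a fatty acid transport protein that also activates very long-chain fatty acids (chromosome 2, 126552407 to 126588243). It was at 126, 46.9, 112 and 201 CPM in controls and 5.28, 1.20, 17.7 and 7.12 CPM in knockouts. All knockouts lay below all controls, and knockout 3 was the highest knockout. Slc27a2 fell 15.5-fold in mean CPM (log2 fold change -3.93, SE 0.69, adjusted p 0.0154), a call lost without knockout 1 or knockout 4 (0.0613 without knockout 4). The other peroxisomal transporter, Abcd3, a membrane carrier for acyl-CoA, was not called. Abcd3 was at 97.0 to 133 CPM in controls and 89.6 to 102 CPM in knockouts (-0.25, SE 0.10, adjusted p 0.105).

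The 2 genes of the thiolase pair had unlike values. Acaa1b (chromosome 9, 119148023 to 119157093) was at 26.1, 10.2, 21.6 and 43.2 CPM in controls and 3.84, 2.31, 8.37 and 4.17 CPM in knockouts. It fell 5.40-fold in mean CPM (log2 fold change -2.42, SE 0.48, adjusted p 0.0196), with no overlap between groups. Acaa1a (chromosome 9, 119339676 to 119350299) was at 97.8, 75.9, 95.2 and 113 CPM in controls and 79.7, 77.2, 85.3 and 71.7 CPM in knockouts. Its groups overlapped, and its value of -0.28 (SE 0.11) did not pass (adjusted p 0.116). Per kilobase of annotated gene length, the control level was 21.6 CPM for Acaa1a and 12.9 CPM for Acaa1b, and the knockout level was 17.8 and 2.38 CPM. The difference between the fold changes of Acaa1a and Acaa1b was not tested, and reads that match both copies make each count uncertain. Exons of Acaa1b also overlap those of Dlec1 on the opposite strand, with 2836 and 1967 counts over all libraries. Those of Acaa1a overlap exons of Myd88 on the opposite strand, with 16746 and 4569 counts. The call of Acaa1b was lost in 5 of the 8 leave-one-out fits, without controls 1 or 3 or knockouts 1, 2 or 4, with a highest adjusted p of 0.0719.

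Of the 2 bifunctional enzymes that act between oxidase and thiolase, 1 was called. Ehhadh, the L-bifunctional enzyme, which is a classic PPAR-alpha target (chromosome 16, 21761287 to 21787844), was at 32.2, 10.5, 19.5 and 42.5 CPM in controls. In knockouts Ehhadh was at 7.14, 4.67, 8.65 and 6.62 CPM, all below all controls (-1.95, SE 0.40, adjusted p 0.0202). Its call, too, was lost without controls 1 or 3 or knockouts 1, 2 or 4. Hsd17b4, the D-bifunctional enzyme that serves branched-chain substrates, was at 96.5 to 144 CPM in controls and 95.7 to 104 CPM in knockouts (-0.32, SE 0.11, adjusted p 0.0750). Decr2, which reduces double bonds of unsaturated fatty acids, had 29.3 to 32.8 CPM and 32.5 to 34.9 CPM (0.11, SE 0.07, adjusted p 0.268).

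Phyh, Hacl1 and Amacr were called lower, at 50.9%, 52.8% and 45.2% of their mean control CPM. Phyh, the hydroxylase that starts the breakdown of phytanic acid, was at 62.4, 36.4, 67.4 and 78.2 CPM in controls and 32.6, 23.7, 36.7 and 31.4 CPM in knockouts. Knockout 3 was just above control 2, so the groups of Phyh touched (-0.97, SE 0.22, adjusted p 0.0264). Hacl1, the lyase of the following step, was at 38.8, 25.4, 37.3 and 49.5 CPM in controls and 23.2, 14.9, 20.2 and 21.3 CPM in knockouts (-0.92, SE 0.20, adjusted p 0.0244). Hacl1 shares exon positions with Btd on the opposite strand and Colq on the same strand. Amacr, the racemase that readies branched-chain acyl-CoA for oxidation, was at 27.2, 16.4, 26.7 and 43.7 CPM in controls and 12.1, 13.4, 14.01 and 12.01 CPM in knockouts (-1.15, SE 0.25, adjusted p 0.0239). Neither Hacl1 nor Amacr overlapped between groups. The calls of Phyh, Hacl1 and Amacr were lost in 6, 6 and 5 of the 8 leave-one-out fits, and with the adrenal covariate Phyh and Amacr had adjusted p values of 0.0530 and 0.0534.

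Cat and Crot had among the smallest fold changes of the 14 enzyme and transporter genes. Cat, for catalase, which destroys the hydrogen peroxide that peroxisomal oxidases make, was at 120, 89.4, 115 and 119 CPM in controls and 107, 105, 102 and 110 CPM in knockouts. Its log2 fold change was -0.065 (SE 0.095, 95% interval -0.25 to 0.12, adjusted p 0.651), and without control 2, the lowest library, it was called lower (0.0446). Crot, for the octanoyltransferase that exports shortened chains, was at 60.5 to 75.7 CPM in controls and 63.0 to 73.7 CPM in knockouts (-0.01, 95% interval -0.18 to 0.15, adjusted p 0.916). The sign of Crot turned in the fits without control 3, control 4 or knockout 3.

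**Figure D3:**
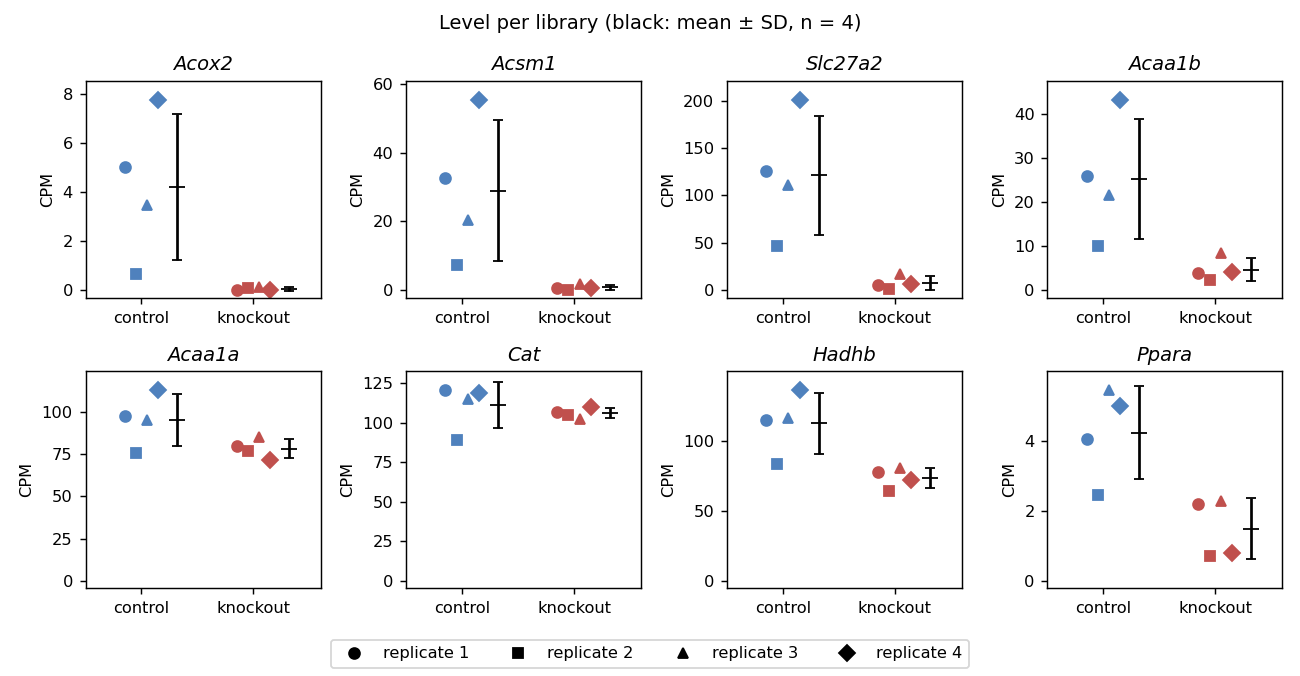
CPM in each library for 8 of the genes, with the replicate number as the marker shape and mean ± SD (n = 4) in black. The 4 knockouts of Acox2, Acsm1, Slc27a2, Acaa1b, Hadhb and Ppara lie below every control, while those of Acaa1a and Cat overlap the controls.

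With 8.27% of all genes tested called lower, 1 of the 8 Pex genes (12.5%) was called, Pex11a. Its product promotes division of peroxisomes, and the gene (chromosome 7, 79735957 to 79743131) is a known PPAR-alpha target. Pex11a was at 16.3, 17.1, 23.2 and 19.1 CPM in controls and 15.7, 10.5, 10.5 and 11.9 CPM in knockouts. Knockout 1 lay close to control 1, without overlap. The log2 fold change of Pex11a was -0.64 (SE 0.17, adjusted p 0.0365), a call kept in 2 of the 8 leave-one-out fits, those without control 2 or knockout 1. The groups of Pex2, a ubiquitin ligase subunit of the import machinery, did not overlap either, at 61.7 to 63.8 CPM and 59.3 to 61.6 CPM, but its value was only -0.06 (SE 0.05, adjusted p 0.392).

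The import machinery otherwise had small or uncalled values. Pex5, the receptor for most matrix enzymes, had 52.3 to 64.8 CPM in controls and 61.5 to 66.8 CPM in knockouts (0.09, SE 0.075, adjusted p 0.438). Pex7, the receptor for the N-terminal signal carried by Phyh and the thiolases, had 24.4 to 37.4 CPM and 20.4 to 25.6 CPM (-0.43, SE 0.13, adjusted p 0.0579). At the docking complex, Pex14 had -0.37 (SE 0.11, adjusted p 0.0571), and Pex13 had 0.02 (SE 0.065, adjusted p 0.867), with controls at 38.7 to 39.6 CPM. Pex6, an ATPase that recycles Pex5, had -0.03 (SE 0.07, adjusted p 0.757). Pex19, which delivers membrane proteins, had 93.2 to 132 CPM and 86.6 to 97.3 CPM (-0.32, SE 0.10, adjusted p 0.0614). Pex7, Pex14 and Pex19 were called lower without control 2. The signs of Pex6 and Pex13 turned in 3 and 4 of the 21 alternative fits.

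In mitochondria, the 2 largest falls were in a gene cluster for medium-chain acyl-CoA synthetases on chromosome 7. Acsm1 (119607026 to 119662515) was at 32.8, 7.28, 20.5 and 55.3 CPM in controls and 0.591, 0.1004, 1.94 and 0.791 CPM in knockouts. Acsm1 fell 33.9-fold in mean CPM (log2 fold change -5.01, SE 0.77, adjusted p 0.0120). Acsm2 (119554340 to 119600690), 6335 bases away, was at 93.6, 34.2, 87.5 and 135 CPM in controls and 5.91, 1.004, 11.7 and 5.72 CPM in knockouts (-3.82, SE 0.61, adjusted p 0.0128). Both genes separated the groups fully, with knockout 2 lowest and knockout 3 highest among knockouts. Both calls held in 7 of 8 leave-one-out fits and were lost without knockout 4, at 0.0530 and 0.0566. Acsm3, 98.4 kb beyond Acsm1, was low in both genotypes, at 1.17 to 1.95 CPM and 1.51 to 1.99 CPM (0.12, SE 0.22, adjusted p 0.728). Exons of Acsm3 overlap those of Eri2, which had 4680 counts over all libraries against 305 for Acsm3, and the part of Eri2 in the counts of Acsm3 was not tested. Acsm genes are paralogs, and reads shared between them make their counts uncertain.

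The carnitine shuttle, which carries long-chain acyl groups into mitochondria, had no called member. Cpt1a, on the outer membrane, was at 133, 71.2, 114 and 221 CPM in controls and 84.98, 95.03, 107.8 and 75.0 CPM in knockouts. Control 2 was below every knockout, and control 4 was far above all other libraries (-0.57, SE 0.29, adjusted p 0.192). Cpt2, on the inner membrane, was at 52.4, 32.5, 44.9 and 77.3 CPM in controls and 34.0, 30.4, 34.6 and 29.6 CPM in knockouts (-0.69, SE 0.22, adjusted p 0.0666). Slc25a20, the carnitine-acylcarnitine translocase, had 44.9 to 83.3 CPM and 50.2 to 53.2 CPM (-0.22, SE 0.16, adjusted p 0.356). By edgeR 0 of the 3 shuttle genes were called, and only Cpt2 had an unadjusted p under 0.05 (0.0130). With 8.27% of all genes tested called lower, a count of 0 among 3 genes says little about the shuttle. DESeq2 called Cpt2 lower, and limma-voom called Cpt2 and Cpt1a lower.

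Of the 4 acyl-CoA dehydrogenases, which carry out the first oxidation, Acadm was called. Acadm, the medium-chain enzyme (chromosome 3, 153922357 to 153944632), was at 175, 117, 198 and 267 CPM in controls and 130, 86.0, 107 and 104 CPM in knockouts. Knockout 1 was above control 2, so the groups overlapped (-0.83, SE 0.23, adjusted p 0.0412). This call was kept in 1 of the 8 leave-one-out fits, that without control 2, and lost with the Y-linked covariate (0.0812). Acadvl, the very long-chain enzyme, had almost the same value (-0.82, SE 0.24) and an adjusted p of 0.0523. Acads, the short-chain enzyme, had -0.46 (SE 0.14, adjusted p 0.0513), and Acadl, the long-chain enzyme, -0.57 (SE 0.19, adjusted p 0.0720). Acadm, Acadvl, Acads and Acadl all had lower values in knockout, with control 2 the lowest control in each, and per kilobase the control level ran from 34.3 CPM for Acadvl to 64.3 CPM for Acadl.

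Hadha and Hadhb sit on either side of the 85 bases printed above. Hadhb, the thiolase subunit of the trifunctional protein (chromosome 5, 30155248 to 30184593), was at 114.4, 83.4, 115.9 and 135.8 CPM in controls and 78.0, 63.9, 80.1 and 72.1 CPM in knockouts, without overlap (-0.61, SE 0.14, adjusted p 0.0264). Hadha, the other subunit (30118304 to 30155162), was at 239, 191, 248 and 304 CPM in controls and 179, 180, 204 and 185 CPM in knockouts (-0.39, SE 0.13, adjusted p 0.0639). Only the call of Hadhb passed, but the difference between Hadha and Hadhb was not tested. The call of Hadhb was lost in 6 of the 8 leave-one-out fits and with the adrenal covariate (0.0504).

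Of the other 5 mitochondrial genes, Eci1 was called. Hadh, the short-chain hydroxyacyl-CoA dehydrogenase, had 132 to 199 CPM in controls and 126 to 148 CPM in knockouts (-0.25, SE 0.12, adjusted p 0.159). Acaa2, the mitochondrial thiolase, had 150 to 226 CPM and 156 to 182 CPM (-0.11, SE 0.12, adjusted p 0.519). It had the highest level per kilobase of the 40 genes, 122 CPM in controls and 113 CPM in knockouts. Etfdh, which hands electrons from the dehydrogenases to the respiratory chain, had 61.3 to 108 CPM and 55.4 to 65.1 CPM (-0.52, SE 0.15, adjusted p 0.0508). The isomerase gene Eci1 fell by 0.68 on a log2 scale (SE 0.18, adjusted p 0.0382), from 68.9, 40.9, 54.8 and 76.3 CPM in controls to 36.2, 33.0, 43.5 and 37.8 CPM in knockouts. Knockout 3 was above control 2, and the call of Eci1 was kept in 2 of the 8 leave-one-out fits and lost with the Y-linked (0.0616) and adrenal (0.0816) covariates. Ech1, a dienoyl-CoA isomerase found in both organelles, had -0.43 (SE 0.18, adjusted p 0.131).

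Ppara (chromosome 15, 85734983 to 85802819) was at 4.06, 2.46, 5.45 and 5.0 CPM in controls and 2.20, 0.703, 2.28 and 0.791 CPM in knockouts. The groups did not overlap, though knockouts 1 and 3 lay close to control 2. The log2 fold change was -1.49 (SE 0.43, adjusted p 0.0473). The call of Ppara was lost with a Y-linked covariate (0.0855), with the adrenal covariate (0.0916), in the libraries with Y-linked transcripts (0.0566) and in 6 of the 8 leave-one-out fits.

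The gene groups were set beside the proximal tubule markers library by library. For each library, the difference of each gene from its control mean was taken, and the median over the group is given in log2 CPM. Mitochondrial genes stood at 0.06, -0.52, -0.03 and 0.48 in controls 1 to 4 and at -0.44, -0.64, -0.40 and -0.59 in knockouts. Peroxisomal enzymes and transporters stood at 0.07, -0.44, 0.06 and 0.34 in controls and -0.49, -0.68, -0.46 and -0.59 in knockouts. Proximal tubule markers stood at 0.49, -1.29, -0.24 and 0.90 in controls and -3.07, -4.67, -1.77 and -2.86 in knockouts. Control 2 was the lowest control for 34 of the 40 genes and control 4 the highest for 34. Knockout 2 was the lowest and knockout 3 the highest knockout in all 3 of these series of medians. The Pex genes did not share this order, at -0.14, -0.19, -0.16 and -0.21 in knockouts 1 to 4. Nor was the order particular to proximal tubule. Knockout 2 was lowest and knockout 3 highest for 6 and 6 of 7 thick ascending limb markers and 6 and 6 of 6 endothelium markers. These counts were 1 and 1 of 7 for fibroblasts, 5 and 0 of 5 for red blood cells, and 0 and 4 for leukocytes. The part of the loss of tubule transcripts in the fold changes of the 40 genes was not tested. The same holds for the other cell types: summed levels in controls and knockouts were 262 to 1217 and 17.9 to 339 CPM for thick ascending limb, 434 to 681 and 303 to 516 CPM for endothelium, 2692 to 3751 and 3058 to 5228 CPM for fibroblasts, 79.2 to 91.2 and 80.0 to 108 CPM for leukocytes, and 391 to 814 and 454 to 1391 CPM for red blood cells. Adipose markers summed to 201 to 277 CPM in controls and 145 to 223 CPM in knockouts. Of the 10 adipose markers, 2 passed the filter on low counts, with log2 fold changes of -0.37 and 2.27, and 0 were called. The median over the 10 was -0.20, -0.06, 0.08 and -0.19 in controls and 0.17, 1.36, -0.20 and 0.54 in knockouts. Among them, Adipoq and Ucp1 reached at most 1.15 and 0.452 CPM in any library.

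**Figure D4:**
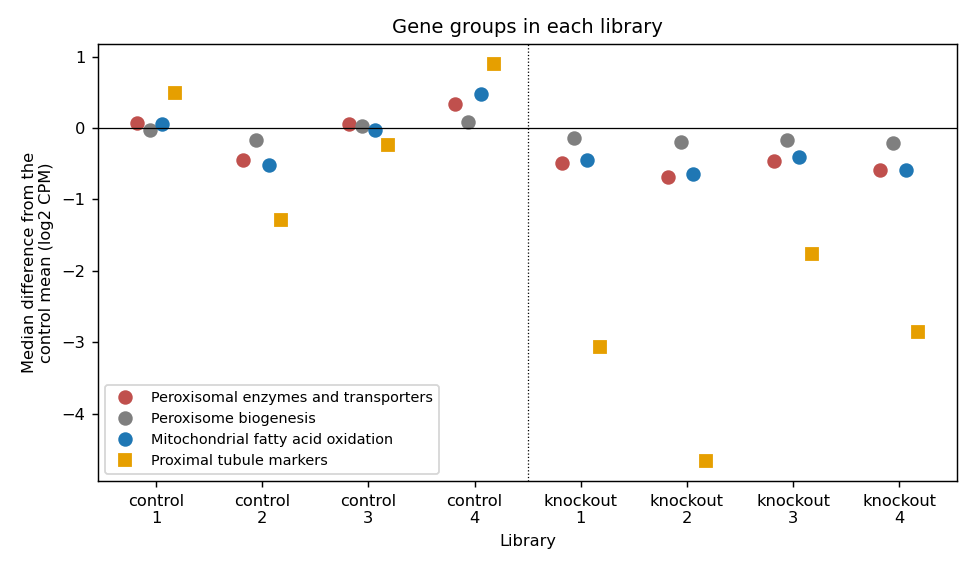
Median difference from the control mean (log2 CPM) of 3 gene groups and of proximal tubule markers in each library. Control 2 lies at -0.52 for mitochondrial genes, inside the knockouts' range of -0.64 to -0.40, and the markers span 0.90 in control 4 to -4.67 in knockout 2.

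Other genes of the same pathways, from lists of related genes, were also mostly lower where they were called. Of 33 other peroxisomal enzyme and transporter genes, 29 were tested, 15 were called lower and 1 higher, with a median of -0.48. The gene called higher was Ddo, for D-aspartate oxidase, at 2.46 ± 0.615 CPM in controls and 8.12 ± 0.725 CPM in knockouts (log2 fold change 1.72, SE 0.205, adjusted p 0.00618; mean ± SD, n = 4). Acot4, a peroxisomal thioesterase gene, went from 8.64 ± 4.56 to 1.62 ± 0.596 CPM (-2.40, adjusted p 0.0172), and Eci3, an enoyl-CoA isomerase gene, from 4.81 ± 3.09 to 0.739 ± 0.138 CPM (-2.70, adjusted p 0.0178). Of 9 other biogenesis genes, 0 were called by edgeR, against 8.27% of all genes called lower, and 1 had an unadjusted p under 0.05. DESeq2 and limma-voom called 1 and 2 of the 9 lower, against 12.6% and 22.9% of all genes.

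Among 18 other mitochondrial genes tested of 19, 10 were called lower and 1 higher, with a median of -0.39. The 3 carnitine palmitoyltransferase 1 genes had unlike values. Cpt1b, the muscle form, went from 4.87 ± 2.38 to 0.972 ± 0.132 CPM (-2.32, adjusted p 0.0153), and Cpt1c, the neuronal form, from 25.7 ± 4.02 to 40.1 ± 3.11 CPM (0.64, adjusted p 0.0164). Exons of Cpt1b overlap those of Chkb on the same strand, with 554 and 10838 counts over all libraries. The part of Chkb in the counts of Cpt1b was not tested. Acsl1, a long-chain acyl-CoA synthetase gene, went from 92.5 ± 36.8 to 29.1 ± 8.11 CPM (-1.67, adjusted p 0.0186). Among PPAR partners and targets, 20 of 25 were tested, and 5 were called lower and 0 higher (1 higher at an unadjusted p under 0.05, 0 by DESeq2 and by limma-voom), with a median of -0.38. They include the fatty acid hydroxylase genes Cyp4a31 (-4.50, adjusted p 0.0128) and Cyp4a10 (-4.69, adjusted p 0.0159), whose counts are uncertain because Cyp4a paralogs are alike, and the fatty acid binding protein gene Fabp3 (-2.64, adjusted p 0.0316). Ppargc1a, the coactivator of oxidative metabolism, went from 41.1 ± 12.7 to 23.3 ± 3.94 CPM (-0.81, adjusted p 0.0394). Hnf4a, a nuclear receptor of proximal tubule identity that is counted with the tubule markers, went from 115 ± 40.8 to 23.9 ± 14.1 CPM (-2.26, adjusted p 0.0336). Fatty acid synthesis and storage genes had 1 of 14 called lower (7.14%, against 8.27% of all genes tested) and a median of -0.11. The called gene was Dgat2, a triglyceride synthesis gene (-1.70, adjusted p 0.0132). Calls in these lists depended on single libraries as well: 33 related genes were called with all libraries, 1 without knockout 4 and 53 without control 2.

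Promoters were described over windows of 300 bases, 250 before the start and 50 after, and 35 of the 40 genes were found in the RefSeq table with 40 windows. The motif bound by PPAR with its partner RXR, a direct repeat of AGGTCA with 1 base between the copies, searched on both strands, was in 0 of the 40 windows and in 0.0396% of all 32851. AGGTCA alone, which the repeat contains, was on either strand in 7 of 40 (17.5%), those of Acadm, Acadvl, Acsm1, Cat, Cpt1a, Phyh and Slc27a2, against 16.3% of all windows. CAAAGTCCA, bound by HNF4 and searched on both strands, was in 1 of 40, that of Abcd3, and in 0.475% of all. These are matches of letters within the window only. Windows with fewer than 10 CG dinucleotides belonged to Acox2, Acaa1b, Acsm1 and Acsm2, which were called, and to Acadvl and Acsm3, which were not. Slc27a2, the third largest fall, had 25. Over all tested genes with a window, 9.69% of 2963 genes with fewer than 10 and 9.01% of 9784 genes with 10 or more were called lower. The limit of 10 was chosen after the counts were seen.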

How the data were processed

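Libraries of poly(A)-selected messenger RNA from whole kidney (4 control, 4 conditional knockout) were deposited as raw counts per gene, 1 column per library, together with a table of the whole series that held the same counts. Per the submitters' processing notes, the tools include Trimmomatic 0.36, STAR 2.5.2b, featureCounts from Subread 1.5.2 and DESeq2, with the build GRCm38. Whether counting used strand is not given in the sources used here, so overlapping genes on opposite strands may share counts. Such pairs include Acadvl with Dvl2 (13836 and 11025 counts over all libraries) and Pex13 with Pus10 (7581 and 7229).

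Of 49315 gene identifiers, 48970 had a GENCODE M21 symbol. Libraries held 19524945 to 28544511 counts. Genes were filtered with filterByExpr, scaled by TMM and compared with edgeR 4.0.16 (quasi-likelihood test, R 4.3.3) in 1 fit without covariates, and p-values were adjusted by Benjamini-Hochberg over all 18485 genes tested. A gene was called at an adjusted p under 0.05. The standard error is the log2 fold change over the square root of F, and 95% intervals use it with a normal approximation. CPM used TMM library sizes, and log2 CPM a prior count of 2. Levels between genes are CPM per kilobase of the gene length in the files. Code for the test was checked on simulated data.

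Alternatives were DESeq2 1.42.0, limma 3.58.1 voom with sample weights, DESeq2 size factors, other filters, a replicate block, covariates for Y-linked and adrenal transcripts, and fits without libraries. The main fit was also repeated on the table of the whole series, whose counts were the same. Fits without knockouts 1 and 4, and without these and control 4, were chosen after seeing the data, as was the description of CG dinucleotides. The members and lists were chosen with earlier results of these data known. Named are Kdm1a, all 40 members, up to 3 called genes with the smallest adjusted p per related list, Ppargc1a and Hnf4a. Promoters are from RefSeq (GRCm38.p6). Protein targeting signals were not analysed here.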

Additional observations from a re-analysis of the deposited data

Results flagged for a closer look

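In 3 of the 80 sets of 4 libraries (40 genes in 2 genotypes), 1 library stood far from the other 3 by Dixon's test, which by chance alone marks about 1 set in 20. Cat was at 89.4 CPM in control 2, against 115 to 120 CPM in the other controls, a gap of 0.836 of the range. Abcd3 was at 102 CPM in knockout 3, against 89.6 to 91.5 CPM in the other knockouts, a gap of 0.848 of the range. Acsm3 was at 1.985 CPM in knockout 1, against 1.51 to 1.58 CPM in the other knockouts, a gap of 0.840 of the range.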

How the results depend on the processing

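The 14 called genes kept their direction in all 21 alternatives. Over 840 recomputed values of the 40 genes, 649 kept direction and side of the threshold, 100 lost a call, 76 gained one and 15 changed sign. However, 1 of the 21 alternatives repeated the main fit on the table of the whole series, which held the same counts. Its 40 values, counted among the 649, could not differ. Against 2751 genes called in all and 14 of the 40 lower, DESeq2 gave 4468 and 24, limma-voom 8302 and 30, the adrenal covariate 858 and 9, leaving out both control 2 and knockout 3 gave 7903 and 30, leaving out knockouts 1 and 4 gave 1 and 0, and leaving out control 4 as well gave 1 and 0. Control 2 was the lowest control for 34 of the 40 genes, and knockout 3 the highest knockout for 26. Leaving both out therefore raises the control mean or lowers the knockout mean of those genes. Leaving out 1 library gave 153 to 7084 genes in all, 0 to 31 of the 40, 0 to 12 peroxisomal, 0 to 4 biogenesis, 0 to 14 mitochondrial and 1 to 53 related genes. Peroxisomal calls (7 with all libraries) were 11 with limma-voom and 11 without control 2 and knockout 3. Biogenesis calls (1) were 4 with DESeq2, 4 with limma-voom, 3 in libraries with Y-linked transcripts and 4 without control 2 and knockout 3. Mitochondrial calls (5) were 11 with DESeq2, 14 with limma-voom, 8 without a filter, 3 with the Y-linked and 3 with the adrenal covariate, 9 in libraries with Y-linked transcripts and 14 without control 2 and knockout 3. Related calls (33) were 51 with limma-voom, 16 with the adrenal covariate and 52 without control 2 and knockout 3. Over all genes tested, the share called lower was 8.27% with all libraries, 12.6% with DESeq2, 22.9% with limma-voom and 4.51% without a filter. It was 5.62% with the Y-linked covariate, 2.23% with the adrenal covariate and 7.84% in libraries with Y-linked transcripts. Without control 2 and knockout 3 it was 22.2%. Each group had 0 without knockouts 1 and 4, with or without control 4, and 0 of all genes were called lower there. The cause was not tested.

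With the replicate number as a block, 18 of the 40 genes were called lower, 2 of them biogenesis and 8 mitochondrial genes, and 3229 genes in all. Of all genes tested, 9.46% were called lower in that fit. Same-numbered libraries deviated with correlations of -0.108, 0.329, 0.228 and -0.059, and not every library correlated best with its own number. Whether same-numbered samples are paired is not given, and these correlations cannot settle it.

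Sign changes were in uncalled genes only. Pex13 (0.017) had -0.0016 with no filter, -0.0064 to 0.074 when 1 library was left out (-0.0064 without knockout 2), -0.0068 without knockouts 1 and 4 and -0.0014 without control 4 as well. Acsm3 (0.117) had -0.038 with the adrenal covariate and -0.0063 without knockouts 1 and 4. Pex5 (0.085) had -0.0019 in libraries with Y-linked transcripts. Crot (-0.014) had -0.075 to 0.044 when 1 library was left out, with 0.0029 without control 3, 0.025 without control 4 and 0.044 without knockout 3. Pex6 (-0.034) had -0.062 to 0.0097 when 1 library was left out, with 0.0061 without control 4, 0.0097 without knockout 3 and 0.014 without knockouts 1 and 4 and control 4, where Slc25a20 had 0.011 and Acaa2 0.062.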
